A study of Mus musculus with 3 samples.

Results

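A set of 6 genes that endothelium uses to catch and hold passing leukocytes was followed through single-cell RNA libraries of mouse bone marrow: Sele, Selp, Vcam1, Icam1, Icam2 and Ackr1. They were taken by symbol from the gene column of the deposited matrices, and all 6 were found among the 31053 genes listed. The study sequenced 3 libraries, 1 for each genotype, from LepR-positive cells and endothelial cells of tibial marrow. All mice were of strain C57Bl/6JCrl and were given tamoxifen by gavage. WT stands for wild-type mice, FLOX for Vegfc flox/flox mice without a named Cre and VC for Cdh5CreERT2;Vegfc flox/flox mice. In the last of these a tamoxifen-activated Cre recombinase is driven by the promoter of Cdh5, the gene of VE-cadherin, so that Vegfc, which encodes a lymphangiogenic growth factor, is targeted in endothelium. Endothelium had been marked by an intravenous antibody against VE-cadherin. How many mice made up a library, their ages and the sorting gates were not stated in the labels, and no group used here carries the Cre with an intact Vegfc.

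Leukocytes leave or enter blood in steps. Selectins on the vessel wall bind carbohydrate ligands and let a cell roll, chemokines held on the surface activate its integrins, and immunoglobulin-family molecules then hold it firmly before it crosses between endothelial cells. In most tissues E-selectin and VCAM-1 appear only after inflammatory cytokines act, whereas bone marrow sinusoids, the thin-walled vessels through which blood cells pass in and out of marrow, carry both at rest and use them to home stem and progenitor cells. VCAM-1 is also a surface molecule of the LepR-positive stromal cells that make Cxcl12 and stem cell factor around those sinusoids.

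Barcodes with at least 500 genes and at most 10% mitochondrial UMIs were kept, which left 12790 of 15624. A UMI (unique molecular identifier) marks 1 captured transcript. Cells were placed in 3 classes by thresholds on genes that are not among the 6. Sinusoidal cells had Cdh5, fewer than 50 Cxcl12 UMIs and at least 2 UMIs of Stab2, a scavenger receptor of sinusoids. The arterial gate took Cdh5-positive cells with at most 1 Stab2 UMI in which at least 2 of the 4 genes Sox17, Sema3g, Fbln2 and Gja4 were detected. LepR stromal cells had at least 50 Cxcl12 UMIs, at least 1 UMI of Lepr or Adipoq and at most 2 of Cdh5. The WT, FLOX and VC libraries held 2992, 3200 and 1643 sinusoidal cells, 58, 189 and 89 cells of the arterial gate, and 264, 1107 and 466 LepR stromal cells. Median depth was 11106.5, 7781 and 10745 UMIs per sinusoidal cell. It was 11754, 6376 and 9079 in the arterial gate and 10654, 11315 and 13581.5 in LepR stromal cells. Levels are given as CPM, the UMIs of a gene per 1000000 UMIs of the class, with values in the order WT, FLOX, VC. With 1 library per genotype no difference between genotypes could be tested, and 95% intervals there (exact Poisson for levels, Clopper-Pearson for shares) cover counting error only. Differences between classes were tested over the 3 libraries.

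Markers that the gates did not use fitted the sinusoidal and the stromal class. Flt4 was at 671, 713 and 805 CPM in sinusoidal cells, and Kitl at 3095, 2483 and 2259 CPM in LepR stromal cells. The WT cells of the arterial gate fitted their label only in part. The 8 arterial markers were Gja5, Efnb2, Hey1, Bmx, Dll4, Unc5b, Ly6a and Vegfc, the targeted gene itself. They summed to 1663, 2786 and 3395 CPM in the gate, against 329, 388 and 889 CPM in sinusoidal cells. In B-lineage cells the same sum was 122, 1146 and 1232 CPM, so it is not specific to arterial cells. Gja5 and Bmx, a gap-junction protein and a kinase of arterial endothelium, were at 0 in the WT cells of the gate. In its FLOX and VC cells Gja5 was at 49.9 and 43.8 CPM and Bmx at 34.9 and 25.5 CPM. Hey1 was at 5.63, 66.7 and 64.1 CPM, and the sinusoidal marker Mrc1 at 253, 108 and 96.7 CPM. The class is therefore called the arterial gate, and class results are given without WT where that matters. Neutrophil RNA also differed: the 6 neutrophil markers summed to 332, 25611 and 25783 CPM in the arterial gate, 724, 6792 and 4274 CPM in sinusoidal cells and 314, 2960 and 8328 CPM in LepR stromal cells. In the arterial gate 0, 9 and 6 cells had 1% or more of their UMIs in these markers. Libraries shared few cell barcodes, 10 between WT and FLOX, 6 between WT and VC and 5 between FLOX and VC, with 0 in all 3. Vegfc itself gave 61, 17 and 6 UMIs in sinusoidal cells, out of 39099077, 30249780 and 21484106 UMIs of that class. Relative to these totals it was lower than WT in FLOX, which has no named Cre, as well as in VC. In LepR stromal cells Vegfc was at 246, 201 and 145 CPM. The labels do not state whether the counted 3' end lies in the deleted part.

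The promoters of both selectins and of Icam1 are shown because these genes are known, in other vessels, for their induction by inflammatory cytokines. The 250 bases before the annotated start are from RefSeq, build GRCm38.p6, in a table of promoters that was matched for 4 of the 6 genes, of which 3 are printed. Vcam1 and Icam2 were not matched in that table. Capitals mark matches, on either strand, to GGANNTTCC (the core of an NF-kB site), TTCNNNGAA (a STAT element) and CAGGAA (an ETS element); AAANNGAAA (an IRF element) was also searched and had no match in these windows. The Sele window at chr1:164047984-164048233, plus strand, held all 3, and its NF-kB and STAT letters overlap. The Icam1 window at chr9:21015690-21015939, plus strand, held an NF-kB core, which matches the pattern on both strands, and a STAT element. The Selp window at chr1:164115014-164115263, plus strand, held none of these letters.
Sele: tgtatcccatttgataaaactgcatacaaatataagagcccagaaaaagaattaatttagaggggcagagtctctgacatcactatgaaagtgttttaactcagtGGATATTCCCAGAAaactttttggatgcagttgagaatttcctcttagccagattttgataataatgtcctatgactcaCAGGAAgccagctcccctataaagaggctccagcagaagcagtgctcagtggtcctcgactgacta
Icam1: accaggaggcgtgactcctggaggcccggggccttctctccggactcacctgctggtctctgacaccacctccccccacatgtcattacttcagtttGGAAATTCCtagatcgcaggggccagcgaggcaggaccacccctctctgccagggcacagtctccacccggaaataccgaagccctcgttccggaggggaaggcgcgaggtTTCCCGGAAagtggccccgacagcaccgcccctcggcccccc
Selp: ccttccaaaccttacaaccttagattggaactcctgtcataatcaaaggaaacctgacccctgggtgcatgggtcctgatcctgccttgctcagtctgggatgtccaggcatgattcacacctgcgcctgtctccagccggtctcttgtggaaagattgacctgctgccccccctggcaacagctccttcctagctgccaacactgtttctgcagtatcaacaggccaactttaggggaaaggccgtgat
Among 32851 promoters of the same length, 3.586% held the NF-kB core, 7.02% the STAT element, 9.373% the IRF element and 25.71% the ETS element. In Sele the NF-kB core lay 145 to 137 bases before the start, and in Icam1 153 to 145 bases before it. A match is a string of letters and not a site shown to be used.

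Sele (chr1:164048234-164057677, plus strand, mm10), the gene of E-selectin, was a gene of sinusoidal cells in all 3 libraries. It stood at 763, 911 and 799.8 CPM there, against 52.0, 13.1 and 44.8 CPM in the arterial gate and 11.1, 4.32 and 0.718 CPM in LepR stromal cells. The lowest sinusoidal value was above every value of the other classes. The arterial values rested on 37, 21 and 44 UMIs, of which 1 VC cell held 24. In LepR stromal cells 1 WT cell held 20 of 33 UMIs. The difference between sinusoidal cells and the arterial gate was 4.81 on the log2 scale (SE 0.51, n = 3 libraries, edgeR quasi-likelihood adjusted p = 5.88e-05). LepR stromal cells were lower than sinusoidal cells by a log2 fold change of -7.59 (SE 0.55, adjusted p = 4.45e-07) and lower than the arterial gate by -2.78 (SE 0.65, adjusted p = 0.00461, edgeR quasi-likelihood test in each case).

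Sele was spread over most sinusoidal cells and uneven among them. A Sele UMI was seen in 88.6%, 90.2% and 87.6% of sinusoidal cells. After each cell was thinned to 2000 UMIs, which left out 18, 29 and 7 shallower cells, the shares were 63.2%, 70.2% and 62.4%. Cells that should lack the gene gave a background: B-lineage cells (median depth 4882, 11170 and 7178 UMIs) had a Sele UMI in 1.59%, 1.15% and 1.80%, and neutrophils (14629.5, 12182 and 11908 UMIs) in 5.29%, 4% and 3.28%. The 3.41%, 2.71% and 1.07% of LepR stromal cells with a Sele UMI lay at or near that background. In the arterial gate the share was 17.2%, 6.35% and 5.62%, or 10, 12 and 5 cells. In FLOX and VC it was not far above that background. The tenth of sinusoidal cells with most Sele UMIs held 37.5%, 34.9% and 36.0% of all of them, and the median cell had 6, 6 and 7.

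Selp (chr1:164115264-164150026, plus strand), the gene of P-selectin, which is stored in Weibel-Palade bodies of endothelium and in platelet granules, followed the same order of classes. Its level was 477, 404 and 365 CPM in sinusoidal cells, 60.5, 19.9 and 26.5 CPM in the arterial gate and 3.02, 2.83 and 1.00 CPM in LepR stromal cells, with no overlap between any pair of classes. Sinusoidal cells exceeded the arterial gate by 3.84 on the log2 scale (SE 0.26, edgeR quasi-likelihood adjusted p = 2.27e-06). LepR stromal cells were lower than sinusoidal cells by -7.45 (SE 0.29, edgeR adjusted p = 3.16e-09). A Selp UMI was seen in 91.6%, 86.8% and 87.2% of sinusoidal cells, and in 56.0%, 52.4% and 47.6% after thinning. Platelets and megakaryocytes also carry P-selectin. Their 8 markers summed to 40.7, 28.1 and 35.8 CPM in sinusoidal cells. Most of it was Pf4, at 30.2, 23.3 and 29.1 CPM, while Gp1bb was at 0 in FLOX and VC. The part of platelet RNA in the Selp level was not tested. The WT cells of the arterial gate, those that lacked Gja5 and Bmx, had the most Selp of the 3 arterial values. Reads of the antisense genes Gm16587 and Gm16548, which overlap Selp, came to 232 and 204 UMIs in all sinusoidal cells.

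**Figure D1:**
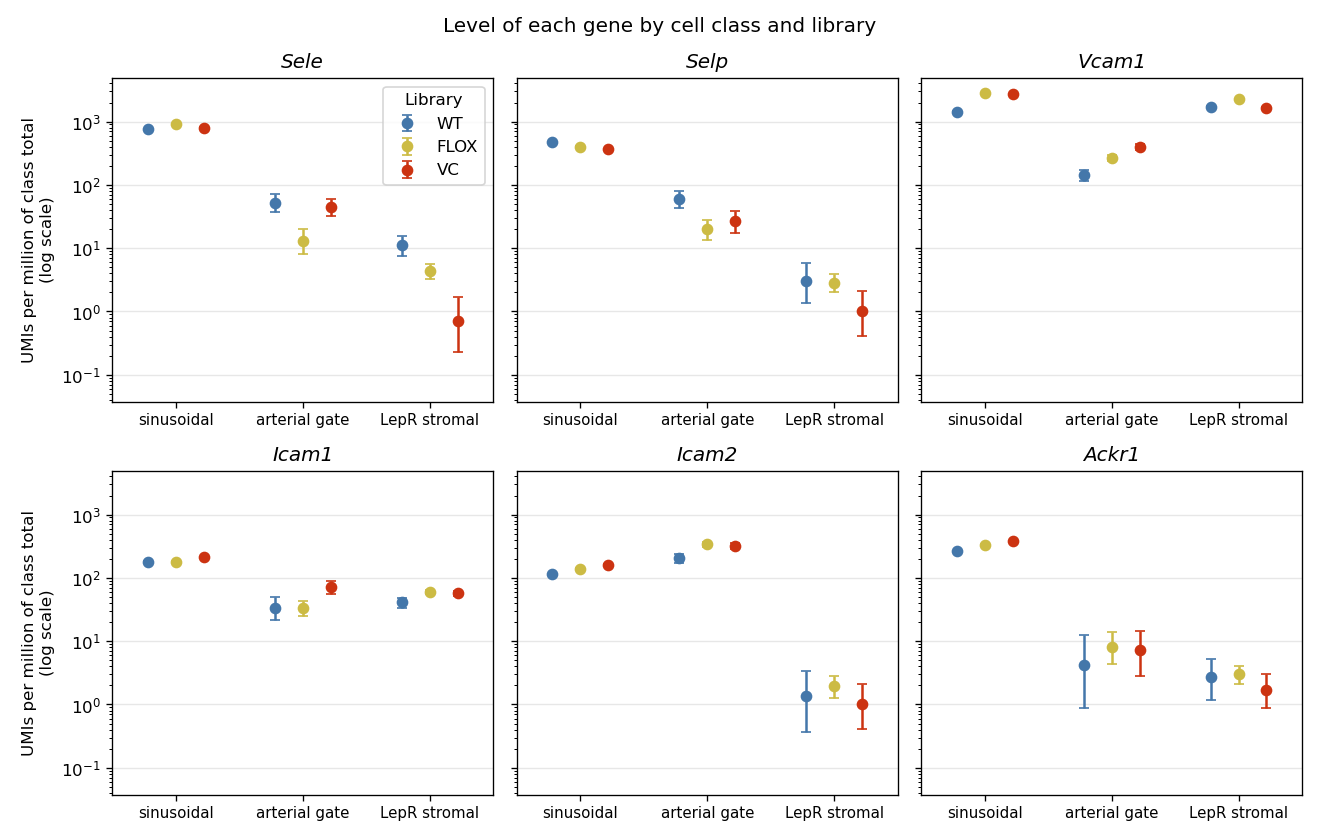
Level of each of the 6 genes in CPM (vertical log axis) in sinusoidal cells, the arterial gate and LepR stromal cells. Points are single libraries (WT blue, FLOX yellow, VC red) and bars are exact Poisson 95% intervals. Sele, Selp and Ackr1 are highest in sinusoidal cells, Vcam1 is high in both sinusoidal and stromal cells, and Icam2 is highest in the arterial gate.

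Vcam1 (chr3:116109949-116129688, minus strand), whose product binds the integrin alpha-4 beta-1 of leukocytes and stem cells, differed from the selectins in being abundant in stroma as well. Its level was 1432, 2799.7 and 2699 CPM in sinusoidal cells and 1725, 2243 and 1661 CPM in LepR stromal cells, so the ranges overlapped. In the arterial gate it was 143, 266 and 400.1 CPM, below both other classes in every library. The difference between LepR stromal and sinusoidal cells was -0.23 on the log2 scale (SE 0.24, edgeR quasi-likelihood adjusted p = 0.428). Within libraries its direction was not the same: stromal over sinusoidal was 1.20-fold in WT, 0.801-fold in FLOX and 0.615-fold in VC. Without WT the value was -0.54 (SE 0.20) and edgeR's adjusted p 0.0420. Both classes exceeded the arterial gate, sinusoidal cells by 3.26 (SE 0.27, edgeR adjusted p = 9.42e-06) and LepR stromal cells by 3.03 (SE 0.27, edgeR adjusted p = 3.72e-06).

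Nearly every stromal cell and most sinusoidal cells had Vcam1. The share of cells with a Vcam1 UMI was 100%, 99.9% and 100% in LepR stromal cells and 95.7%, 99.0% and 99.0% in sinusoidal cells. Thinned, it was 90.1%, 96.4% and 92.2% against 80.7%, 95.2% and 94.7%. In the arterial gate 50%, 51.3% and 59.6% of cells had a UMI, and the tenth of cells with most held 52.0%, 58.8% and 54.2% of the UMIs. In B-lineage cells the unthinned share was 6.98%, 15.8% and 13.8%. In neutrophils it was 33.5%, 38.4% and 26.2%, at 66.2, 100.5 and 103 CPM. The tenth of neutrophils with most held 73.9%, 69.0% and 86.7% of these UMIs. The source of such counts was not tested, so low Vcam1 counts in single cells cannot be read as expression.

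Icam1 (chr9:21015985-21028817, plus strand), whose product binds the beta-2 integrins, was again highest in sinusoidal cells, at 179.7, 180.3 and 210.3 CPM. It was at 33.8, 33.7 and 71.3 CPM in the arterial gate and at 40.9, 59.3 and 56.7 CPM in LepR stromal cells, and these last 2 ranges overlapped. Sinusoidal cells exceeded the arterial gate by 2.24 on the log2 scale (SE 0.20, edgeR quasi-likelihood adjusted p = 1.81e-05). LepR stromal cells were lower than sinusoidal cells by -1.87 (SE 0.16, edgeR adjusted p = 2.28e-06). Stroma and the arterial gate differed by 0.37 (SE 0.21, edgeR adjusted p = 0.174), and by 0.76 without VC (edgeR adjusted p = 0.0177). A sinusoidal cell had an Icam1 UMI in 63.4%, 59.9% and 70.5% of cases and, thinned, in 24.3%, 26.4% and 28.3%. B-lineage cells gave 11.4%, 23.3% and 24.0%, and thinned 3.67%, 5.88% and 8.48%. Leukocytes also carry ICAM-1, so these cells are not a pure background for this gene. The stromal shares, 8.40%, 10.3% and 10.4% after thinning, were not far above them.

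Icam2 (chr11:106377656-106388075, minus strand), which resting endothelium expresses constitutively, was the one gene of the 6 with more RNA in the arterial gate. It stood at 203, 340 and 318 CPM there, against 114, 137 and 158 CPM in sinusoidal cells, and the ranges did not overlap. The difference, sinusoidal minus arterial, was -0.91 on the log2 scale (SE 0.13, edgeR quasi-likelihood adjusted p = 0.00047), and the arterial level was higher in each library, by 1.78-fold, 2.48-fold and 2.01-fold. In LepR stromal cells Icam2 gave 4, 26 and 7 UMIs, or 1.34, 1.94 and 1.00 CPM. The share of cells with an Icam2 UMI was 81.0%, 88.4% and 91.0% in the arterial gate and 65.5%, 63.7% and 76.3% in sinusoidal cells. After thinning it was 31.0%, 53.2% and 46.6% against 19.9%, 23.2% and 27.7%. B-lineage cells, which also carry ICAM-2, had 7.33%, 5% and 7.88% after thinning.

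Ackr1 (chr1:173331886-173333750, minus strand) encodes the Duffy antigen, a chemokine-binding receptor without G-protein signalling that is known from venules and red cells. Its level was 263, 333 and 381 CPM in sinusoidal cells, 4.22, 8.10 and 7.13 CPM in the arterial gate and 2.68, 2.98 and 1.72 CPM in LepR stromal cells. The arterial values rest on 3, 13 and 7 UMIs. Sinusoidal over arterial was 62.3-fold in WT (counting interval 21.3 to 302), 41.1-fold in FLOX (24.0 to 77.3) and 53.5-fold in VC (25.9 to 133). The log2 difference was 5.74 (SE 0.22, edgeR quasi-likelihood adjusted p = 5.51e-08). LepR stromal cells were also lower than the arterial gate, by -1.35 (SE 0.36, edgeR adjusted p = 0.0103), a call that ended without FLOX (-1.45, edgeR adjusted p = 0.0866). After thinning, 0, 0 and 1 cells of the arterial gate had an Ackr1 UMI. Neutrophils had Ackr1 at 2.47, 6.63 and 0.914 CPM, so both sides of this contrast lie close to background counts.

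Ackr1 was less widespread than the selectins. A UMI was seen in 75.9%, 75.6% and 79.1% of sinusoidal cells, or 36.6%, 43.7% and 44.5% after thinning. Erythroid cells, which are known to carry the receptor, had it in 16.1%, 0% and 15.4%, that is in 9 of 56, 0 of 9 and 2 of 13 cells, so that in FLOX the interval reaches 33.6%. In the WT erythroid cells the level was 26.4 CPM. Ackr1 lies within Cadm3 on the same strand, so that reads of the 2 genes could be divided by the counting. Cadm3, an adhesion molecule known from nerve cells, was counted at 75.6, 80.7 and 76.7 CPM in sinusoidal cells, 36.6, 23.1 and 21.4 CPM in the arterial gate and 0.336, 1.04 and 0.718 CPM in LepR stromal cells. In the arterial gate Cadm3 thus exceeded Ackr1. With the UMIs of both genes summed, sinusoidal over arterial would be 8.29-fold, 13.3-fold and 16.1-fold, so the size of the Ackr1 difference is uncertain by several times, though sinusoidal cells stay higher.

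Set side by side, all 6 genes passed the test between sinusoidal cells and the arterial gate, 5 higher in sinusoidal cells and 1 lower. Of the 13136 genes tested, 15.1% were higher and 10.4% lower in that comparison. Scaling by total UMIs alone, without TMM, moved the log2 difference of Icam2, for example, by -0.15 and changed the calls of all genes from 1989 higher and 1362 lower to 1363 higher and 1770 lower, while the 6 kept their directions and calls. Without the WT library the same 6 calls were made, with log2 differences of 5.23 for Sele, 4.30 for Selp, 3.25 for Vcam1, 2.17 for Icam1, -0.96 for Icam2 and 5.72 for Ackr1. Between LepR stromal and sinusoidal cells 0 of 6 were higher and 5 lower, against 30.7% and 30.7% of all genes. Between LepR stromal cells and the arterial gate 1 was higher and 4 lower, against 27.3% and 22.1% of all genes. The median log2 difference of the 6 was 3.55, -6.83 and -2.06 in the 3 comparisons, beside 0.10, -0.01 and 0.08 over all genes tested.

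The low counts of Sele, Selp, Icam2 and Ackr1 in LepR stromal cells were no larger, relative to sinusoidal cells, than those of endothelial genes that such cells should lack. In WT, FLOX and VC the stromal level was 1.45%, 0.474% and 0.0897% of the sinusoidal level for Sele and 0.633%, 0.701% and 0.276% for Selp. It was 1.18%, 1.41% and 0.635% for Icam2 and 1.02%, 0.894% and 0.452% for Ackr1. For the 6 pan-endothelial markers Pecam1, Kdr, Tie1, Tek, Erg and Emcn the median share was 1.33%, 1.13% and 0.683%, and the highest 1.46%, 1.75% and 1.05%. Vcam1 (120.5%, 80.1% and 61.5%) and Icam1 (22.8%, 32.9% and 27.0%) stood far above it.

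**Figure D2:**
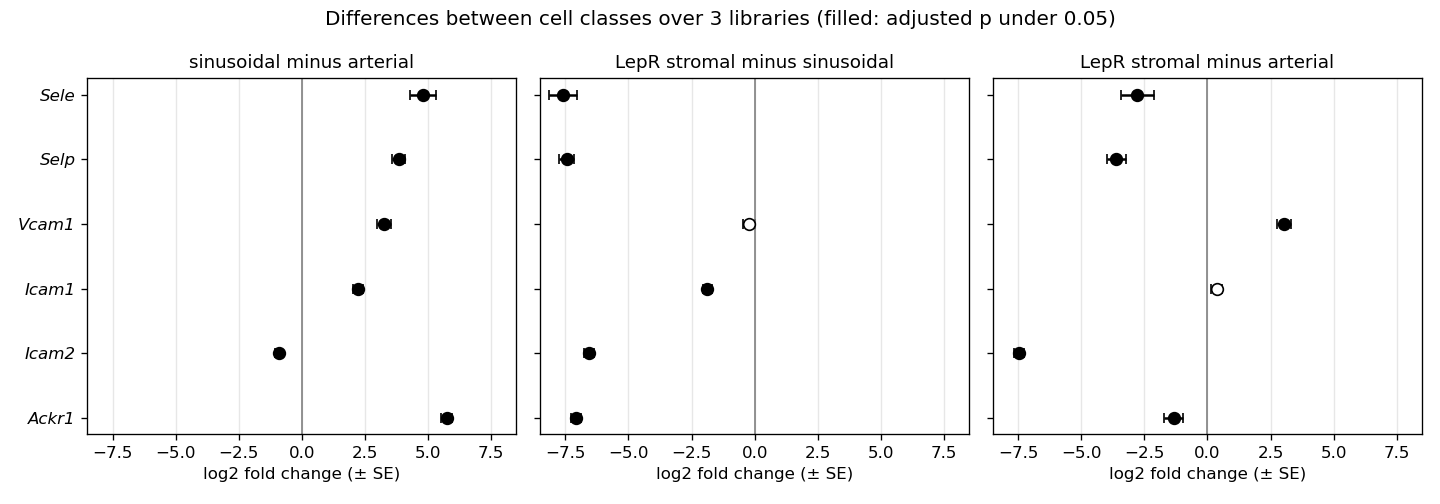
Log2 fold change with its standard error for each gene between cell classes, from edgeR's quasi-likelihood test over 9 sums of 3 classes and 3 libraries. Filled points passed an adjusted p of 0.05, and the open points are Vcam1 between stroma and sinusoids and Icam1 between stroma and the arterial gate. Icam2 alone lies left of 0 in the first panel.

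**Figure D3:**
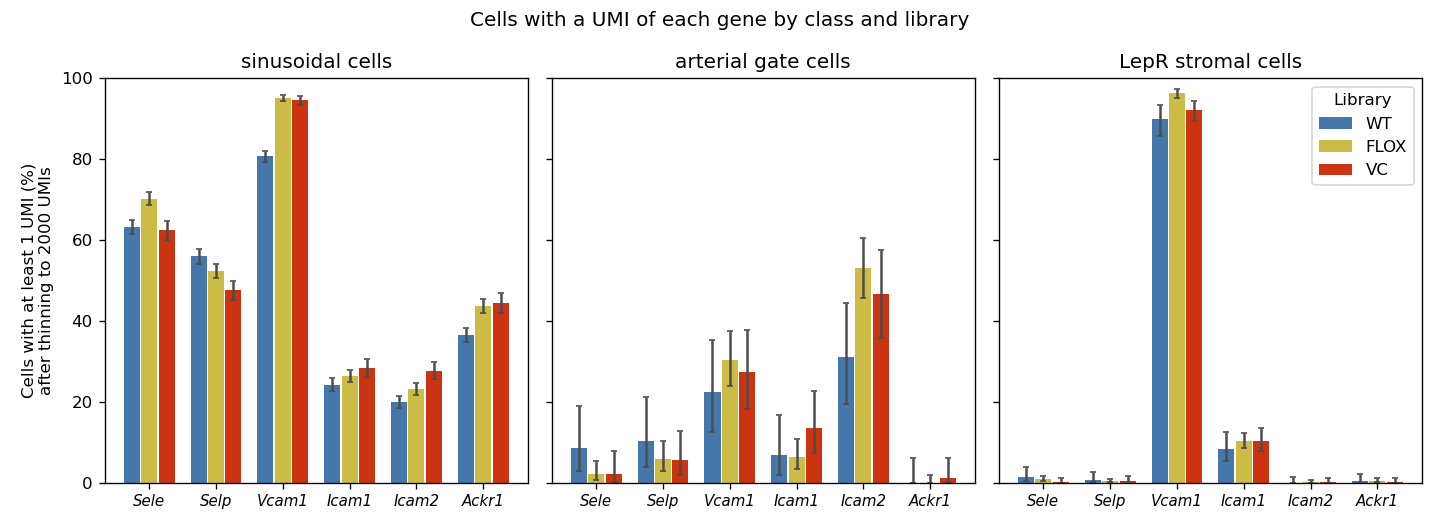
Percent of cells with at least 1 UMI of each gene after thinning every cell to 2000 UMIs, by class and library, with Clopper-Pearson 95% intervals that cover counting error only. In sinusoidal cells the shares run from 19.9% for Icam2 in WT to 95.2% for Vcam1 in FLOX, and in LepR stromal cells only Vcam1 and, at 8.40% to 10.4%, Icam1 stand above 2%.

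Between genotypes the sinusoidal levels of Sele, Selp and Icam1 differed by less than 1.5-fold, and that of Vcam1 by more. A gene was counted as past the fold in VC when it was at least 1.5-fold from both WT and FLOX in the same direction. In sinusoidal cells 0 of 6 were, beside 1.87% of 8309 genes. VC over WT and VC over FLOX were 1.05-fold and 0.877-fold for Sele, 0.765-fold and 0.903-fold for Selp, 1.17-fold and 1.17-fold for Icam1, 1.39-fold and 1.16-fold for Icam2, and 1.45-fold and 1.14-fold for Ackr1. A scaling by the median of gene ratios would raise VC over WT by 0.14 and FLOX over WT by 0.11 on the log2 scale in these cells, and VC over WT by 0.10 in the arterial gate. Under it VC over WT in sinusoidal cells was 1.60-fold for Ackr1 and 1.53-fold for Icam2, past 1.5-fold, while VC over FLOX stayed at 1.17-fold and 1.18-fold. Without cells with UMIs of other types VC over WT was 1.56-fold for Ackr1.

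Vcam1 separated WT from both floxed libraries. In sinusoidal cells FLOX was 1.96-fold above WT (1.93 to 1.98) and VC 1.88-fold (1.86 to 1.91), while VC over FLOX was 0.964-fold. WT was lower than both others for 1 of the 6 genes, beside 1.08% of all genes. The median sinusoidal cell had 14.5, 22 and 29 Vcam1 UMIs. Stroma did not show the same order: there VC over WT was 0.963-fold and FLOX over WT 1.30-fold. The libraries also differ in other RNA: in sinusoidal cells the 6 erythroid markers summed to 2152, 26.2 and 567 CPM and the 8 arterial markers to 329, 388 and 889 CPM, beside the neutrophil markers given above. The arterial sum is not specific to arterial cells: in VC B-lineage cells it was 1232 CPM with 5 of the 8 markers at 0. The counts there came from Efnb2, Dll4 and Ly6a. How much of the Vcam1 difference came with erythroid RNA or with RNA of that list was not tested. Without the cells with 1% or more neutrophil UMIs, VC over WT in sinusoidal cells was 1.92-fold.

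In the arterial gate 5 of the 6 genes had enough UMIs for the rule, all but Ackr1, and 2 were past the fold in VC, Vcam1 and Icam1, both higher, beside 2.84% of 7279 genes. Vcam1 was 2.79-fold above WT and 1.503-fold above FLOX, just at the limit. Icam1 was 2.11-fold above WT (1.31 to 3.51) and 2.12-fold above FLOX (1.46 to 3.08), from 24, 54 and 70 UMIs, of which a single VC cell held 14. Without the cells with neutrophil RNA Vcam1 was under the limit at 1.46-fold over FLOX and Icam1 was 2.26-fold and 2.09-fold above the others. With stricter gates Icam1 was 1.45-fold over WT. WT stood apart as lower for Vcam1 and Icam2, beside 9.48% of all genes, and as higher for Selp, beside 6.55%. With stricter gates WT stood apart for 0 of the 3 genes that could be compared: FLOX over WT for Vcam1 was 1.03-fold in place of 1.85-fold, VC over WT for Icam2 was 1.42-fold, and Selp had too few UMIs. Since the WT cells here lack Gja5 and Bmx, genotype and the mix of cells cannot be told apart. Sele was lowest in FLOX, at 0.292 times the VC value and 0.251 times the WT value, and so past the fold, beside 1.77% of all genes that were lower in FLOX. As a mean over cells of their own CPM, which gives the VC cell with 24 of 44 UMIs less weight, VC over FLOX was 1.496-fold in place of 3.42-fold and Sele was no longer apart in FLOX. By that mean Sele was instead apart as higher in WT, at 49.4, 17.0 and 25.4 CPM, beside 463 of 7279 genes higher in WT.

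In LepR stromal cells Vcam1 and Icam1 had enough UMIs for the rule and 0 of these 2 were past the fold in VC, beside 2.01% of 8626 genes. VC over WT and VC over FLOX were 0.963-fold and 0.740-fold for Vcam1 and 1.39-fold and 0.956-fold for Icam1. The other 4 genes had between 4 and 58 UMIs per library there.

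Within sinusoidal cells, those with more Ackr1 had more of both selectins and of Vcam1, and less Icam2. Cells of each library were ranked by the share of Ackr1 in their UMIs and cut into 3 equal groups; this describes cells of 1 library, which are not replicates. From the lowest to the highest group Sele went from 624 to 884 CPM in WT, from 713 to 1076 CPM in FLOX and from 633 to 902 CPM in VC. Selp went from 354 to 591 CPM, from 297 to 499.9 CPM and from 237 to 457 CPM. Vcam1 went from 1025 to 1774 CPM, from 2326 to 3317 CPM and from 2177 to 3059 CPM. Icam1 went from 151 to 204 CPM, from 146 to 205 CPM and from 181 to 243 CPM, but the share of thinned cells with an Icam1 UMI was 25.8%, 28.1% and 28.4% in cells with an Ackr1 UMI against 23.4%, 25.1% and 28.2% in cells without, so that no difference showed in VC. Icam2 went from 127 down to 97.2 CPM, from 152 to 128 CPM and from 181 to 141 CPM. The groups had like depths, with medians of 11089 and 10731 UMIs in the lowest and highest group of WT. Ranked by Stab2, the receptor used for the gate, the highest group had more Selp than the lowest in each library, 569 against 362 CPM in WT, 473 against 320.3 CPM in FLOX and 439.6 against 286 CPM in VC, and less Icam2, 107 against 126 CPM, 130.2 against 149.8 CPM and 151 against 167 CPM. After thinning, cells with a Vcam1 UMI had Sele in 66.9%, 72.1% and 64.2% of cases, against 48.0%, 33.1% and 31.0% of cells without.

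Ranking by Cxcl9, a chemokine gene induced by interferon-gamma, gave an order of Selp and Ackr1 in VC that was not seen in WT and FLOX. Cxcl9 was chosen because earlier results of these data showed it apart in VC, and its sinusoidal level was 213, 169 and 3571 CPM. In VC, from the lowest to the highest group, Selp was at 457, 366 and 282 CPM and Ackr1 at 516, 393 and 248 CPM. Sele was at 874, 806 and 727 CPM and Icam1 at 241, 199 and 197 CPM. Icam2 was higher at each step, from 135 through 155 to 182 CPM, and Vcam1 from 2472 through 2748 to 2839 CPM. In WT the same groups had Selp at 478, 465 and 489 CPM and Ackr1 at 275, 249.2 and 269 CPM, and in FLOX Selp at 398, 395 and 419 CPM and Ackr1 at 349, 318 and 337 CPM. In both of these the lowest group had 0 Cxcl9 UMIs, so that cells were tied there and their order is that of the file. Median depth in the VC groups was 9824, 11395 and 11191 UMIs. The difference between libraries in these gradients was not tested.

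**Figure D4:**
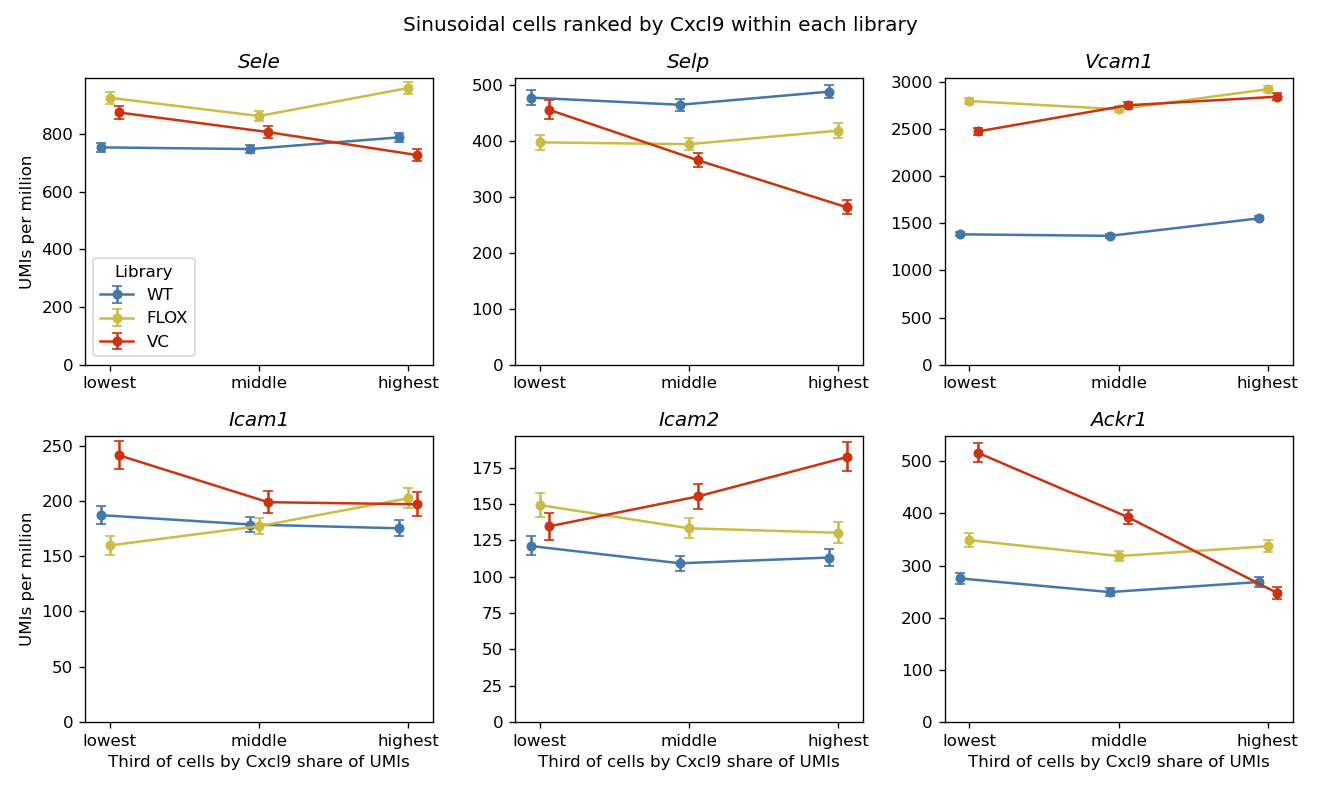
Level of the 6 genes in CPM (linear axis from 0) in sinusoidal cells of each library cut into 3 equal groups by the share of Cxcl9 in their UMIs. Bars are exact Poisson 95% intervals over counts only. The VC line falls for Selp (457 to 282) and Ackr1 (516 to 248) and rises for Icam2 (135 to 182), while the WT and FLOX lines stay near level for Selp and Ackr1.

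The partners that act with these genes were drawn from 7 lists, and their counts describe these libraries only. They are to be read beside the shares of all genes that were higher (15.1%) and lower (10.4%) in sinusoidal cells than in the arterial gate, a balance that turned to more lower than higher calls without TMM. Of 16 tested genes of adhesion and transmigration, 1 was higher and 7 lower in sinusoidal cells than in the arterial gate, with a median log2 difference of -0.50 beside 0.10 for all genes. The 1 that was higher was Madcam1, at 3.04, 4.07 and 2.09 CPM against 0 in the arterial gate, named after its values were seen. The lower ones included Podxl and Cd34, sialomucins that can carry selectin ligands, at 50.7, 49.4 and 49.9 CPM in sinusoidal cells against 537, 787 and 751 CPM, and at 40.8, 38.5 and 33.4 CPM against 601, 529 and 458 CPM. Pecam1, the junctional molecule of transmigration, was at 622, 600.2 and 541 CPM against 1310, 1147 and 999.7 CPM. Cdh5 itself, a gate gene, was at 1188, 986 and 1056 CPM against 1608, 1107 and 1128 CPM (log2 difference -0.08, edgeR quasi-likelihood adjusted p = 0.764). Those that differed thus lay mostly on the side of Icam2.

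Of 7 tested enzymes that build selectin ligands, 3 were higher and 2 lower in sinusoidal cells than in the arterial gate (median 0.03). Chst2, a sulfotransferase, was at 398, 412 and 417.5 CPM in sinusoidal cells, 84.4, 43.0 and 61.1 CPM in the arterial gate and 65.8, 61.0 and 60.1 CPM in LepR stromal cells. The sialyltransferases parted: St3gal4 was at 45.2, 43.7 and 59.0 CPM in sinusoidal and 8.72, 8.12 and 7.18 CPM in stromal cells, and St3gal6 at 67.9, 69.7 and 64.1 CPM against 282, 249.5 and 243 CPM. Tpst2, which sulfates tyrosines, was at 99.3, 89.4 and 92.8 CPM in sinusoidal cells and 18.1, 23.7 and 20.4 CPM in stroma.

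Of the other atypical chemokine receptors all 4 were tested, and between sinusoidal cells and the arterial gate 1 was higher and 2 lower (median -1.13). The higher one, Ackr2, is named after its values were seen, being under the level set for naming. It was at 17.0, 12.3 and 17.0 CPM in sinusoidal cells, 16.9, 5.61 and 5.09 CPM in the arterial gate and 0.336, 0.0745 and 0 CPM in stroma. In FLOX and VC it had the order of classes of Ackr1, while in WT the endothelial classes were level. The difference between the endothelial classes was smaller than for Ackr1 and only just passed (log2 1.02, edgeR quasi-likelihood adjusted p = 0.0494). Ackr4 was a stromal gene, at 525, 418 and 459 CPM in LepR stromal cells and at most 0.760 CPM in the endothelial classes. Ccrl2 was an arterial one, at 26.7, 38.6 and 37.7 CPM in the arterial gate and 2.25, 3.21 and 4.28 CPM in sinusoidal cells.

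Genes of the Weibel-Palade body, where P-selectin is stored, did not move with Selp as a group: 2 of 9 tested were higher and 4 lower in sinusoidal cells than in the arterial gate (median -0.41). Cd63, a membrane protein of that granule and of other organelles, was at 257, 326 and 324 CPM in sinusoidal cells, 85.8, 129 and 116 CPM in the arterial gate and 939.8, 1362 and 1269 CPM in stroma. Angpt2 was at 16.7, 13.5 and 15.0 CPM against 2.81, 2.49 and 5.09 CPM in the arterial gate. Edn1, the gene of endothelin, was at 1.56, 0.496 and 0.838 CPM in sinusoidal cells and 2.81, 61.1 and 84.5 CPM in the arterial gate, low again in WT. Slc44a2 was at 59.4, 52.3 and 60.0 CPM against 94.3, 89.8 and 113 CPM. Vwf, the granule's main cargo, stood at 0.742, 1.98 and 1.63 CPM in sinusoidal cells and is named here after its values were seen.

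Of 10 tested receptors for the cytokines known to induce selectins and VCAM-1, 6 were higher and 1 lower in sinusoidal cells than in the arterial gate (median 0.57 beside 0.10 for all genes). Il6st, the shared signal chain of interleukin-6 family receptors, was at 3092, 2909.6 and 3051 CPM in sinusoidal cells, 806, 449 and 645 CPM in the arterial gate and 289, 259 and 235 CPM in stroma. It was also on the list of sinusoidal markers used to check the labels. Its place among the 6 higher ones is therefore no independent result. Il13ra1 was at 70.0, 65.8 and 74.7 CPM against 53.5, 34.9 and 36.7 CPM and Il4ra at 59.5, 59.4 and 76.9 CPM against 61.9, 51.1 and 68.2 CPM, the latter without passing (edgeR quasi-likelihood adjusted p = 0.224). Il1r1 was stromal, at 295, 249.8 and 207 CPM against 51.6, 53.9 and 46.9 CPM in sinusoidal cells.

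Of 14 tested genes known as targets of NF-kB, 4 were higher and 2 lower in sinusoidal cells than in the arterial gate (median 0.28). In stroma against sinusoidal cells 6 were higher and 4 lower (median 0.48), shares near the 30.7% and 30.7% of all genes. Birc3 was at 56.2, 67.5 and 61.3 CPM in sinusoidal cells against 28.1, 21.8 and 20.4 CPM in the arterial gate. Ccl2 was at 78.9, 628 and 214 CPM in stroma and at most 3.17 CPM in endothelium, and Cx3cl1 at 66.8, 67.4 and 53.7 CPM in stroma, 8.44, 29.3 and 38.7 CPM in the arterial gate and at most 3.37 CPM in sinusoidal cells. By the 1.5-fold rule 1 of 9 tested was higher in VC in sinusoidal cells, 2 of 11 in the arterial gate, and in stroma 1 was higher and 1 lower of 12, beside 1.87% of all genes past the fold in sinusoidal cells, 2.84% higher in the arterial gate and 2.01% past it in stroma. Irf1, which is induced by interferon-gamma as well, was the one higher in all 3 classes and was picked after its values were seen, at 91.1, 98.0 and 212 CPM in sinusoidal cells. Cxcl1 was higher in the arterial gate, at 2.81, 15.0 and 24.4 CPM, and lower in stroma, at 74.2, 72.5 and 36.2 CPM.

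Counter-receptors of leukocytes served as a further check on other cells: of 9 tested, 1 was higher and 1 lower in sinusoidal cells than in the arterial gate (median -0.41). Itgam and Itgb2, which together make the integrin Mac-1 of neutrophils, were at 2.20, 16.2 and 11.5 CPM and at 1.71, 9.32 and 6.61 CPM in sinusoidal cells, low in WT as the neutrophil markers were. Itga9 was at 131, 199.6 and 190.3 CPM in sinusoidal cells against 108, 93.5 and 82.5 CPM in the arterial gate, and Itgb1 was present in all classes, with 1024, 973 and 911 CPM in stroma.

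The genes whose levels were most like each of the 6 over the 9 sums were found by Pearson correlation of log2(CPM + 1) among the 6746 genes that averaged 20 CPM or more. The sums share libraries and each value rests on 3 classes, so these are descriptions. For Sele they were Vps13c (r = 0.997), Epor (0.996) and Nr2f1 (0.991), and for Selp Mrc1 (0.998), Degs1 (0.996) and Ipo11 (0.994). For Ackr1 they were Rgs4 (0.996), Ston2 (0.993) and Daglb (0.989). Vcam1 was most like Ctsh (0.976), Meis2 (0.974) and Lcp2 (0.963), and Icam1 most like Ang (0.977), Mlxip (0.977) and Mgst1 (0.975). Icam2 was most like Upp1 (0.998), the arterial Notch ligand Dll4 (0.997) and Gata2 (0.997).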

How the data were processed

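Single-cell 3' RNA libraries of the 10x kit v3.1 were sequenced on an Illumina instrument, per the labels' protocols. The authors deposited 1 matrix of whole-number UMI counts per gene and cell barcode for each library. Cell Ranger 2.1.1, Seurat 3.1 and mm10 appear in the submitters' processing notes, whereas the file headers give software version 3.1.0. No source used here says whether counting used strand. The deposited counts were filtered, classed by gates and summed per class and library, with totals of 56853574 (WT), 61758462 (FLOX) and 37361779 (VC) UMIs over all barcodes. CPM were computed from those sums. Class differences were fitted with edgeR 4.0.16 (quasi-likelihood, TMM, library as a block, Benjamini-Hochberg over 13136 genes) in R 4.3.3, and DESeq2 1.42.0 was an alternative. The spread is that between 3 libraries of different genotype, with 4 residual degrees of freedom. The labels do not state whether a library is 1 animal or a pool. The fit was tested on simulated data first. No doublet caller was run; leaving out the 5% of cells with most UMIs was an alternative.

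The 6 genes, the lists and the rules were chosen with earlier results of these data known. From each list, up to 4 genes with the largest log2 difference between classes were named, among those averaging 10 CPM or more over the 9 sums. Other names are marked as chosen after seeing values. Genotypes were compared by size only, at 1.5-fold, for genes that averaged 10 CPM or more and had 50 UMIs or more. Promoters came from RefSeq's table. Python 3.11.15, scipy 1.17.1, pandas 2.3.3 and matplotlib 3.10.9 were used.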

Additional observations from a re-analysis of the deposited data

Results flagged for a closer look

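The Vcam1 level of LepR stromal cells relative to sinusoidal cells lay on opposite sides of 1 in different libraries. It was 1.20-fold in WT, 0.801-fold in FLOX and 0.615-fold in VC. The difference between the libraries was not tested, since each genotype has 1 library.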

How the results depend on the processing

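The count of 2 of the 6 genes past 1.5-fold in VC in the arterial gate became 1 with a 2-fold limit, with at least 1000 genes and at most 5% mitochondrial UMIs, with stricter gates, without cells with UMIs of other types, without the 5% of cells with most UMIs, and without cells with neutrophil RNA (the last chosen after seeing the data). The cause was not tested. The gene left was Vcam1 with stricter gates and Icam1 in the others. In LepR stromal cells the count of 0 became 3 (Sele, Selp and Ackr1, lower) with no minimum level, also chosen after seeing the data. These rest on the few UMIs given above. In that setting all 6 genes were compared, and of 18806 genes 2965 were lower and 1891 higher in VC. Leaving out 1 library at a time gave 6 to 6, 5 to 6 and 4 to 6 of the 6 genes called in the sinusoidal to arterial, stromal to sinusoidal and stromal to arterial comparisons; an arm never fell below 2 libraries. Without the library as a block, the pairing of sums from 1 library, 6, 5 and 5 of the 6 genes were called, and 2694, 7133 and 6020 of all genes. All genes called between sinusoidal cells and the arterial gate were 3351, against 1461 without FLOX and 1937 without VC. DESeq2 split them 1369 higher and 1562 lower. Of 234 log2 differences of the 6 genes under alternatives, 229 kept direction and call, 2 lost the call, 3 gained it and 0 reversed. Those lost were Ackr1 between stroma and the arterial gate without FLOX and with stricter gates (-0.91, edgeR adjusted p = 0.125). Counts of 3 to 13 Ackr1 UMIs limit its arterial level, and the sum with Cadm3 was likewise chosen after seeing the data.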
